A study of Mus musculus with 12 samples.

Results

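The growth hormone response of liver was followed in 12 mouse livers through 10 genes of the 18193 that had a probe set of their own, with 18 of the 45101 probe sets on each array. They were the receptor Ghr, the transcription factor gene Stat5b, the feedback inhibitor genes Socs2 and Cish, and 6 genes under growth hormone control in liver: Hsd3b5, Hsd3b2, Elovl3, Sult3a1, Obp2a and Keg1. Every probe set annotated with exactly 1 of these symbols was taken. The genes had been proposed with the values of these same arrays in view, so their levels and differences are a description and carry no test.

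The arrays compared male mice on the 129J background lacking the scaffold protein IQGAP2 in the whole body (KO, Iqgap2-/-) with wild-type (WT) males, to follow the development of hepatocellular carcinoma. The 4 groups, of 3 arrays each, were labelled KO 24 months tumor (RNA of liver tumors), KO 6 months, WT 24 months and WT 6 months (RNA of normal liver in these last 3). All groups shared the diet, the background and the sex. Affymetrix mouse genome arrays were used, 1 per animal, and every value below is a log2 intensity or a difference of log2 intensities, on which 1 unit is a doubling. Array medians lay between 5.41 and 5.45.

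Growth hormone from the pituitary binds its receptor on hepatocytes, and the kinase JAK2 then phosphorylates STAT5B, which enters the nucleus and switches on target genes. Igf1, which codes for the main circulating growth factor made by the liver, is the best known of these targets, and Socs2 and Cish code for proteins that dampen the receptor's signal. In rodents, males release growth hormone in pulses and females in a steadier flow, and many liver genes differ between the sexes for that reason. Hsd3b5 and Elovl3 are high in male mouse liver, whereas Sult3a1 is high in female mouse liver.

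In 2 of the groups the label went against the arrays. Iqgap2, the deleted gene, read 12.05 to 12.15 in the arrays labelled KO 24 months tumor and 8.07 to 8.68 in KO 6 months, against 11.92 to 12.30 in WT 24 months and 8.24 to 8.38 in the arrays labelled WT 6 months. Afp, the fetal protein of many liver tumors, read 12.04 to 13.27 in the arrays labelled WT 6 months and at most 7.62 in the 9 others. Both genes are as they would be if these 2 labels had been exchanged. The Y-linked genes Eif2s3y and Kdm5d were also low in the arrays labelled WT 6 months (Eif2s3y 9.20 to 9.93 in the other 9 arrays, against 4.63 to 6.94 there), while Xist stayed between 5.2 and 6.77 in all 12. The arrays are therefore named by their labels throughout. With the labels exchanged, the same 4 pairs of groups would be compared under other names, and the 6 arrays labelled KO would be the 6 arrays of 6-month livers without tumor.

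Promoters are shown for 4 of the genes because STAT5 binds the DNA motif TTCNNNGAA, which reads the same on both strands. The windows, from RefSeq on build GRCm38.p6, run from 250 bases before to 50 bases from an annotated start. For Cish, Keg1, Hsd3b5, Hsd3b2 and 1 window of Ghr this start is the edge of the annotated gene. The remaining starts lie inside the gene, among them that of Sult3a1 (gene at chr10:33851020-33879475). Windows were found for 8 of the 10 genes, in 10 windows, and Elovl3 and Socs2 had none in the table used. The motif is in capitals where its letters occurred. Cish and Keg1 held it at 2 places and Sult3a1 at 1, and Hsd3b5, which had no match, is shown beside them because it had the widest difference between KO 6 months and WT 6 months (6.32).
Cish (chr9:107296409-107296708, plus strand): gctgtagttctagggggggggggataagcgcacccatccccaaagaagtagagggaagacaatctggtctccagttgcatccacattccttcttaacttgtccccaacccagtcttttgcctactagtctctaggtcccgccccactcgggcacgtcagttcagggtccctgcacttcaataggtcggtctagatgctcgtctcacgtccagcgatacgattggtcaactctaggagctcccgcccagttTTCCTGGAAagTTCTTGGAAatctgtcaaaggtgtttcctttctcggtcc
Keg1 (chr19:12695540-12695839, plus strand): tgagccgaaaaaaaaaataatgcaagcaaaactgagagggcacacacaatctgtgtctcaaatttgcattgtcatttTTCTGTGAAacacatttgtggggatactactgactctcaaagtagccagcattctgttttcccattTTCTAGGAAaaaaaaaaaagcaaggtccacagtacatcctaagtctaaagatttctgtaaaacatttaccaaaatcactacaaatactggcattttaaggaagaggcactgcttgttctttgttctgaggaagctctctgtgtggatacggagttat
Sult3a1 (chr10:33857472-33857771, plus strand): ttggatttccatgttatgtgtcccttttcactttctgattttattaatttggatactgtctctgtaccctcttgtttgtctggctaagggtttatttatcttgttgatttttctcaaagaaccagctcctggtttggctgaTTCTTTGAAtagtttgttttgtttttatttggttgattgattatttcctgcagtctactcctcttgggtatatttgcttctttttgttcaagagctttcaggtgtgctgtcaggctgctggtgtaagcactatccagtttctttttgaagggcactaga
Hsd3b5 (chr3:98645485-98645784, minus strand): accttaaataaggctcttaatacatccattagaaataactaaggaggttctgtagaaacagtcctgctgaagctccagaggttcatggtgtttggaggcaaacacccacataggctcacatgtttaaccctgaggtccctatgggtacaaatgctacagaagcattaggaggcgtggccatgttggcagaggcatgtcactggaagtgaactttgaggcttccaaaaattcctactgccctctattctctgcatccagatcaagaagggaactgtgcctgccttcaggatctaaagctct
In Cish the matches began 1 and 12 bases from the start, inside the transcribed part of the window. In Keg1 they began 173 and 107 bases before the start. In Sult3a1 the match began 109 bases before the start used, inside the annotated gene. No match was found in the windows of Obp2a, Hsd3b2, Stat5b or Ghr. Of all 32851 promoter windows of this length, 8.30% held the motif at least once and 0.457% held it at 2 or more places. A match says only that these letters are present.

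Ghr, the receptor at the head of the pathway, was bright in every array and higher in all 6 arrays labelled KO than in all 6 labelled WT. Its brightest probe set read 13.44, 13.42 and 13.45 in KO 24 months tumor and 13.34, 13.23 and 13.47 in KO 6 months. It read 13.16, 12.58 and 13.10 in WT 24 months and 12.48, 12.58 and 12.91 in WT 6 months. The KO arrays were close to each other and the WT arrays spread lower, without overlap. The difference was 0.49 ± 0.16 (limma SE) for KO 24 months tumor against WT 24 months and 0.69 ± 0.16 for KO 6 months against WT 6 months. Both other probe sets of Ghr separated the labels in the same way, at 12.37 to 12.80 in KO arrays against 10.93 to 12.20 in WT arrays for one and 10.20 to 11.02 against 8.51 to 9.91 for the other. In bulk liver RNA, fewer cells of a type and less RNA per cell cannot be told apart.

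Stat5b, which codes for the factor that carries the signal to the nucleus, was nearly level over the 4 groups. Its brightest probe set averaged 9.23 ± 0.10 in KO 24 months tumor, 9.23 ± 0.20 in KO 6 months, 9.10 ± 0.25 in WT 24 months and 9.06 ± 0.21 in WT 6 months (SD, n = 3 each). All groups overlapped, and no group mean stood more than 0.18 from another. The second probe set, dimmer at 7.21 to 8.02, also overlapped in all groups. These values are of RNA, and phosphorylation of the protein was not measured.

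Socs2, the feedback inhibitor whose protein marks the growth hormone receptor for breakdown, varied more between animals of 1 group than between groups. The brightest probe set read 7.18, 8.79 and 9.03 in KO 24 months tumor and 6.61, 8.94 and 7.25 in KO 6 months. It read 6.11, 10.92 and 8.63 in WT 24 months, and 8.60, 8.81 and 8.53 in WT 6 months. WT 24 months thus held both the lowest and the highest of the 12 arrays, 4.81 apart, whereas the 3 arrays labelled WT 6 months lay within 0.28. The second brightest probe set followed the same animals, with 4.74 in WT 24 months replicate 1 and 10.56 in replicate 2. Of the other 4 probe sets of Socs2, 2 stayed below 5 in every array. On the brightest probe set every difference of group means was near or below its standard error of 0.98, the largest being -1.05 for KO 6 months against WT 6 months. In the remaining 2 probe sets, which read 3.89 to 6.49, KO 24 months tumor lay above KO 6 months without overlap (0.67 ± 0.24 and 0.96 ± 0.45 SE). KO 6 months lay below WT 6 months without overlap in the second brightest probe set (-1.43 ± 1.12) and in 1 of these 2 (-0.62 ± 0.45).

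Cish, a second STAT5 target and inhibitor of the same receptor family, was high in KO 24 months tumor and low and uniform in KO 6 months. It read 8.02, 9.59 and 10.22 in KO 24 months tumor, against 7.41, 7.38 and 7.25 in KO 6 months. The 2 groups did not overlap, and they differed by 1.93 ± 0.50 (SE). In WT 24 months it read 7.63, 9.15 and 8.64, and in WT 6 months 7.44, 8.31 and 8.29. All 3 arrays of KO 6 months lay below all 3 of WT 6 months, with a difference of -0.67 ± 0.50, while the WT ages overlapped. Within WT 24 months, replicate 1 was the lowest and replicate 2 the highest for Cish as for Socs2.

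**Figure D1:**
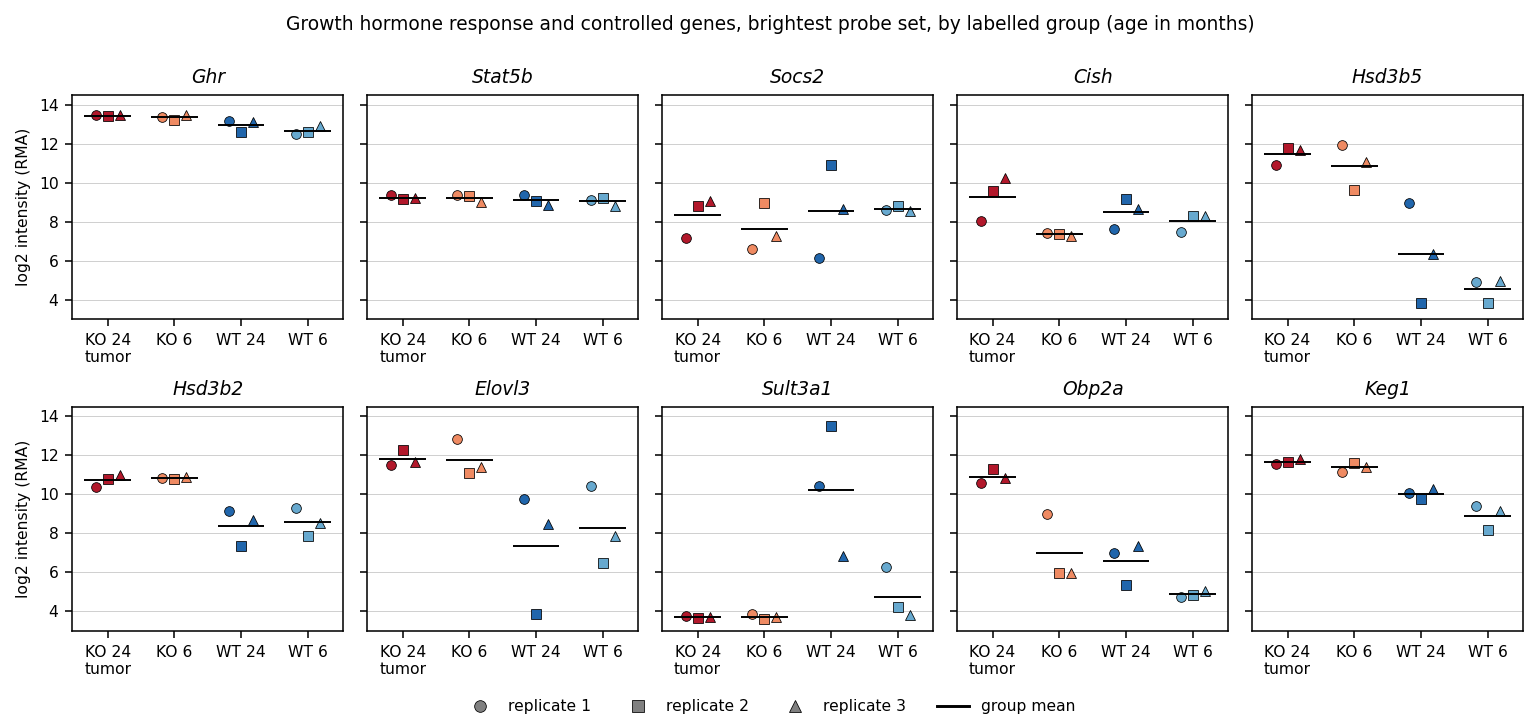
Log2 intensity of the brightest probe set of each of the 10 genes in the 12 arrays, by labelled group, with replicates 1 to 3 as circle, square and triangle and the group mean as a line. Hsd3b5, Hsd3b2, Elovl3 and Keg1 lie higher in all 6 KO arrays than in all 6 WT arrays, Sult3a1 reaches 13.51 in 1 WT 24 months array, and Socs2 spreads from 6.11 to 10.92 within WT 24 months.

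Hsd3b5, a steroid-metabolizing enzyme of male mouse liver, showed one of the widest ranges of the 10 genes. It read 10.90, 11.76 and 11.65 in KO 24 months tumor and 11.94, 9.61 and 11.03 in KO 6 months. It read 8.93, 3.80 and 6.31 in WT 24 months, and 4.88, 3.80 and 4.96 in WT 6 months. No WT array reached the lowest KO array, and within WT 24 months the animals differed by 5.13. The mean difference was 5.09 ± 1.00 (SE) for KO 24 months tumor against WT 24 months and 6.32 ± 1.00 for KO 6 months against WT 6 months. The 24-month difference was 3.82 without WT 24 months replicate 2 and 6.38 without replicate 1.

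Hsd3b2, a relative of Hsd3b5 on the same chromosome, separated the labels more tightly. Its values were 10.39, 10.79 and 11.01 in KO 24 months tumor and 10.82, 10.78 and 10.92 in KO 6 months. They were 9.13, 7.35 and 8.68 in WT 24 months and 9.31, 7.88 and 8.54 in WT 6 months. The differences were 2.34 ± 0.42 (SE) at 24 months and 2.26 ± 0.42 at 6 months, KO minus WT, and -0.11 and -0.19 between the ages within KO and within WT. Genes of the Hsd3b family are close in sequence, so probe sets can take signal from a relative, and a probe set that names 3 of them together was left out.

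Elovl3, an elongase of very long chain fatty acids, read 11.52, 12.27 and 11.67 in KO 24 months tumor and 12.83, 11.11 and 11.43 in KO 6 months. It read 9.77, 3.85 and 8.48 in WT 24 months, and 10.44, 6.47 and 7.88 in WT 6 months. The WT arrays were all below the KO arrays but ran from bright to near the bottom of the scale. The difference at 24 months was 4.46 ± 1.31 (SE), and 2.70 without WT 24 months replicate 2. At 6 months it was 3.52 ± 1.31.

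Keg1, of the glycine N-acyltransferase family, was also higher in all 6 KO arrays than in all 6 WT arrays. It read 11.57, 11.65 and 11.82 in KO 24 months tumor and 11.13, 11.62 and 11.43 in KO 6 months. It read 10.08, 9.78 and 10.27 in WT 24 months and 9.41, 8.20 and 9.14 in WT 6 months. The 2 WT groups did not overlap each other either, with a difference of 1.13 ± 0.26 (SE) for WT 24 months against WT 6 months. The order of the means was KO 24 months tumor, KO 6 months, WT 24 months and WT 6 months, and only the KO groups overlapped.

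Obp2a, an odorant-binding lipocalin, was highest in the arrays labelled KO 24 months tumor. It read 10.58, 11.33 and 10.85 there, against 9.01, 5.97 and 5.96 in KO 6 months. In WT 24 months it read 7.02, 5.37 and 7.38, and in WT 6 months 4.74, 4.85 and 5.06. KO 24 months tumor lay above every other array, WT 6 months below every other array, and the 2 groups between them overlapped. The difference was 4.33 ± 0.72 (SE) for KO 24 months tumor against WT 24 months and 3.94 ± 0.72 for KO 24 months tumor against KO 6 months. KO 6 months replicate 1 lay 3.04 above the lowest array of its group, and without it the difference between the KO groups was 4.96.

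Sult3a1, a sulfotransferase of female mouse liver, ran the other way. It stayed at 3.68 to 3.79 in KO 24 months tumor and at 3.61 to 3.86 in KO 6 months, near the bottom of the scale. In WT 24 months it read 10.44, 13.51 and 6.82, and in WT 6 months 6.26, 4.21 and 3.82. Its range over the 12 arrays, 9.89, was the widest of the 10 genes. KO 24 months tumor was 6.52 lower than WT 24 months on the log2 scale (difference -6.52, SE 1.23), or -4.89 without WT 24 months replicate 2 and -8.23 without replicate 3. WT 24 months differed from WT 6 months by 5.49 ± 1.23, or by 3.87 without replicate 2 and 7.21 without replicate 3 of WT 24 months. The KO groups overlapped, and KO 6 months overlapped WT 6 months in 1 array.

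**Figure D2:**
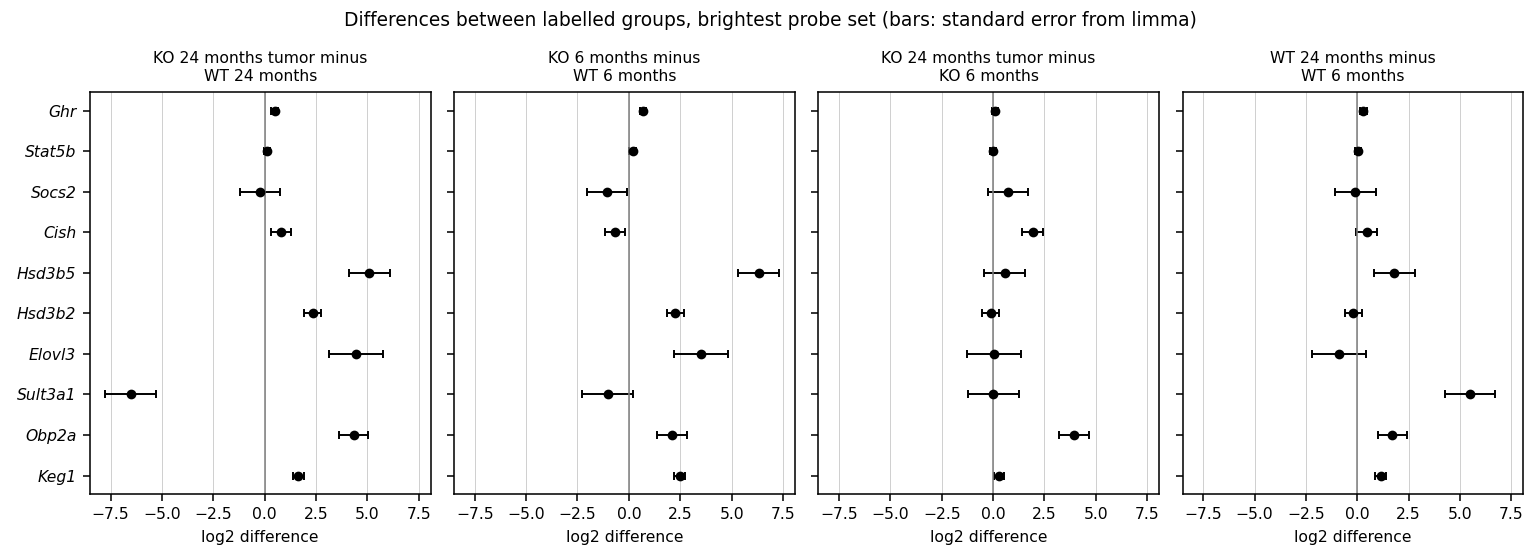
Differences of group means of the 10 genes in the 4 comparisons, on the log2 scale, with limma standard errors as bars. Hsd3b5, Hsd3b2, Elovl3, Obp2a and Keg1 lie right of 0 in both comparisons of KO with WT, and Sult3a1 lies at -6.52 in the first.

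By the brightest probe set, 5 of the 10 genes (Ghr, Hsd3b5, Hsd3b2, Elovl3 and Keg1) were higher in all 6 KO arrays than in all 6 WT arrays. Over all 45037 probe sets tested, 2.59% separated in that direction, and since the genes were chosen on these values nothing is read from either share. With the 2 labels exchanged this split is one of 6-month against 24-month livers, and the Ghr, Hsd3b5, Hsd3b2, Elovl3 and Keg1 levels are then higher in the 6-month arrays. Calls of the same fit are given in that sense only. For KO 24 months tumor against WT 24 months, 2 of the 10 genes (Obp2a and Keg1) passed an adjusted p of 0.05 in limma beside 0.238% of all probe sets. For KO 6 months against WT 6 months, 4 genes (Ghr, Hsd3b5, Hsd3b2 and Keg1) passed beside 12.1%. For KO 24 months tumor against KO 6 months none passed in limma or in SAM, beside 0.02% in limma. There 2 passed after centring on housekeeping genes and 1 without KO 6 months replicate 1. For WT 24 months against WT 6 months 2 genes (Sult3a1 and Keg1) passed beside 8.76%. In SAM, and with only the groups compared in the fit, 0 of the 10 genes passed in this last comparison. Groups did not overlap for 7 of the genes in KO 24 months tumor against WT 24 months (6 higher and 1 lower, beside 13.0% and 6.77% of all probe sets) and for 7 in KO 6 months against WT 6 months (6 higher and 1 lower, beside 19.5% and 14.3%). They did not overlap for 2 genes, both higher, in KO 24 months tumor against KO 6 months (beside 7.28%) and for 3, all higher, in WT 24 months against WT 6 months (beside 10.9%). The median difference of the 10 genes was 1.22, 1.4, 0.19 and 0.38 in these 4 comparisons, beside medians over all genes of 0.04, 0.05, 0.00 and 0.01. The calls of the first comparison rested on single arrays, with 6 genes called without WT 24 months replicate 1 and 0 without any 1 of the 3 KO 24 months tumor arrays, without WT 24 months replicate 2 or without KO 6 months replicate 2 or 3, which enter the fit only through its common error. For KO 24 months tumor against WT 24 months 6 genes passed after centring on housekeeping genes, 3 in SAM and 1 with only the groups compared in the fit.

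The animals of the WT 24 months group differed from each other along these genes. Replicate 2 held the lowest Elovl3 (3.85) and Hsd3b2 (7.35) of the 12 arrays, shared the lowest Hsd3b5 (3.80) with WT 6 months replicate 2, and held the highest Sult3a1 (13.51) and Socs2 (10.92). Replicate 1 of the same group held the lowest Socs2 (6.11) and the highest Hsd3b5 (8.93) of the WT arrays. Eif2s3y was not low in replicate 2, at 9.93. Replicate 3 stood apart in other markers: its summed Kupffer markers reached 15.06 (log2 of the sum of 6 genes), against 11.75 and 12.42 in replicates 1 and 2, and its summed lymphocyte markers 10.93 against 8.46 and 8.57.

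The genes that ran most like each member over the 12 arrays were ranked by the root mean square difference after each gene was centred on its own mean. For Hsd3b5 these were Elovl3 (1.54), the major urinary protein gene Mup3 (1.57) and its relative Mup10 (1.72). Mup10 was also first for Elovl3 (1.34), followed by Hsd3b2 (1.42) and Asic5 (1.49). Mup10 read 5.14 in WT 24 months replicate 2, against 11.73 and 11.81 in the other arrays of that group. For Sult3a1 the nearest were Slc22a26 (2.03), Acnat2 (2.07) and the estrogen sulfotransferase gene Sult1e1 (2.11), which are wide distances beside the 3.08 of Sult3a1 about its own mean. Sult1e1 read 12.65 in that same WT 24 months array and 5.15 to 6.33 in the 6 KO arrays. Hsd3b2 lay closest to Car1 (0.38), Alas2 (0.57) and Mcm10 (0.61), and Keg1 to Sntg2 (0.36), Car1 (0.44) and Mcm10 (0.47). Obp2a lay closest to the thyroid hormone deiodinase gene Dio1 (1.18), Tedc2 (1.39) and Serpina4-ps1 (1.45). The root mean square about the gene's own mean was 3.16 for Hsd3b5, 2.56 for Elovl3, 2.37 for Obp2a, 1.26 for Hsd3b2 and 1.15 for Keg1. Beside these, the distances of Hsd3b5, Elovl3 and Obp2a were wide too. Elovl3 and Hsd3b2, named above as near genes, are themselves members chosen on these values.

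Wider lists of liver genes that differ between the sexes under growth hormone were read in the same arrays. These lists and those below were chosen with earlier results of these data known. Most genes named from them had the smallest adjusted p of their list, so these p values are not independent support. Of 20 male-biased genes 14 were measured, and 4 (Cyp2u1, Cspg5, Serpina12 and Mup3) were higher in KO 6 months than in WT 6 months, none lower, beside 12.1% of all probe sets called in either direction. The list median was 1.14 beside 0.05 over all genes. In SAM 10 of the 14 were higher and 0 lower in this comparison, where SAM called 9639 probe sets in all and limma 5453. For WT 24 months against WT 6 months 0 of the 14 passed in SAM. Mup3 read 14.14, 13.92 and 13.97 in KO 6 months against 10.08, 10.08 and 8.23 in WT 6 months, a difference of 4.55 ± 1.15 (SE, limma adjusted p = 0.0245), and its probe set can pick up other major urinary protein genes. In KO 24 months tumor against WT 24 months 0 of the 14 passed in limma and 0 in SAM, with 9 higher at p under 0.05 before adjustment and a median of 0.90. Without WT 24 months replicate 2, 1 gene passed as higher, 8 passed in KO 6 months against WT 6 months, and without replicate 3 these counts were 3 and 7. The call of Mup3 was lost without any 1 array of KO 6 months and without WT 6 months replicate 2 or 3 (3.93 to 4.85), and that of Cspg5 (0.57) without KO 6 months replicate 3 (0.53). Serpina12, the gene of vaspin, was also higher in WT 24 months than in WT 6 months (1.94 ± 0.44 SE, limma adjusted p = 0.0171), a call lost without WT 24 months replicate 2 (1.60) or WT 6 months replicate 3 (1.81). Cyp2u1, a fatty acid hydroxylase, was the clearest, with 2.54 ± 0.21 (SE) for KO 6 months against WT 6 months (limma adjusted p = 2.09e-05) and 1.59 ± 0.21 for WT 24 months against WT 6 months (adjusted p = 0.000697).

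Of 20 female-biased genes 13 were measured, and 2 were lower in KO 6 months than in WT 6 months, beside 12.1% of all probe sets called in either direction. The 2 genes were Prom1, a surface protein of progenitor cells, at -4.39 ± 0.52 (SE, limma adjusted p = 0.000262), and Atp6v0d2, a proton pump subunit, at -3.54 ± 0.59 (adjusted p = 0.00265). The same 2 genes were lower in WT 24 months than in WT 6 months, beside 8.76% of all probe sets called in either direction. In SAM 4 of the 13 were lower and 0 higher in KO 6 months against WT 6 months. For WT 24 months against WT 6 months 0 passed in SAM. In KO 24 months tumor against WT 24 months 0 of the 13 passed in limma and 1 in SAM as lower, with 9 lower and 1 higher at p under 0.05 before adjustment and a median of -1.55, which was -1.14 without WT 24 months replicate 2. Fmo2, a monooxygenase, read 6.88, 6.45 and 6.89 in KO 24 months tumor against 7.80, 10.55 and 7.97 in WT 24 months, and Cyp3a44, a cytochrome P450, read 4.34 to 4.54 against 5.68, 6.71 and 4.46.

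**Figure D3:**
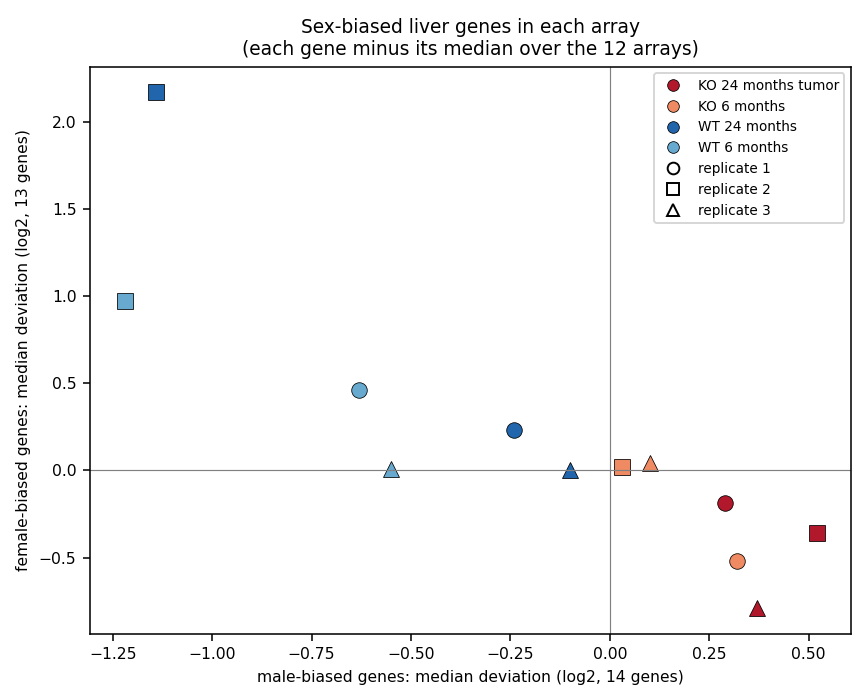
Each point is 1 array, colored by labelled group, with the median deviation of 14 male-biased genes on the x axis and of 13 female-biased genes on the y axis (log2, each gene minus its median over the 12 arrays). WT 24 months replicate 2 lies at -1.14 and 2.17, WT 6 months replicate 2 at -1.22 and 0.97, and all 6 KO arrays lie at 0.03 or above on the x axis.

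By array, the median deviation of the male-biased genes was 0.29 to 0.52 in KO 24 months tumor and 0.03 to 0.32 in KO 6 months, against -1.14 to -0.10 in WT 24 months and -1.22 to -0.55 in WT 6 months. In WT 24 months replicate 2, 8 of the 14 male-biased genes were 1 or more below their median and 9 of the 13 female-biased genes were 1 or more above it.

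In the signalling pathway around Ghr and Stat5b, 13 of 15 listed genes were measured. KO 6 months against WT 6 months called 2 higher (Igf1 and Igfals) and 4 lower, beside 12.1% of all probe sets. WT 24 months against WT 6 months called 2 higher (the same pair) and 2 lower, beside 8.76%. Igf1 read 13.22 to 13.26 in KO 24 months tumor, 13.23 to 13.33 in KO 6 months and 13.05 to 13.15 in WT 24 months, against 11.56 to 11.90 in WT 6 months. The 3 arrays labelled WT 6 months stood alone, and KO 6 months was 1.53 ± 0.10 (SE) above them (limma adjusted p = 3.07e-06). Igfals, whose protein holds IGF1 in the circulation, was 1.21 ± 0.17 higher in KO 6 months than in WT 6 months (adjusted p = 0.000717). Grb10, an adaptor that dampens insulin and IGF signalling, was -0.96 ± 0.18 (adjusted p = 0.00569) and Socs3, the inhibitor of cytokine signalling, -1.76 ± 0.27 (adjusted p = 0.00173) in that comparison. KO 24 months tumor against WT 24 months called 1 gene of the list, the phosphatase gene Ptpn2 (-0.76, limma adjusted p = 0.0439), which is named after its value was seen. That call was lost in SAM (adjusted p = 0.0664) and without any 1 array other than WT 24 months replicate 1 (-0.82 to -0.65). Averaged over the probe sets of Ptpn2 the difference was only -0.24 (limma adjusted p = 0.216). The call was also lost after centring on housekeeping genes, with only the groups compared in the fit and with the replicate block. Ptpn2 was among the 4 genes called lower in KO 6 months against WT 6 months too (-0.47 ± 0.13 SE, limma adjusted p = 0.0366). That call was not followed over these alternatives. Its brightest probe set read 8.60 to 9.10 in the KO arrays and 9.35 to 9.77 in the WT arrays.

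Of 11 nuclear factors known to act beside STAT5 in liver, 10 were measured. KO 6 months against WT 6 months called Cebpa higher (1.07 ± 0.17 SE, limma adjusted p = 0.00212) and Tox, Trim24 and Foxa1 lower (-1.18, -1.62 and -0.94). Over all probe sets, 12.1% were called in this comparison. Trim24 read 7.86 to 8.03 in KO 24 months tumor and 7.49 to 8.34 in KO 6 months, against 8.58 to 10.14 in WT 24 months and 9.06 to 10.33 in WT 6 months, so that the KO arrays lay below the WT arrays. The calls of Foxa1 (limma adjusted p = 0.0338) and Trim24 (adjusted p = 0.0210) depended on single arrays. Foxa1 lost its call without any 1 array of KO 6 months and without WT 6 months replicate 1 or 2 (-1.05 to -0.71), Trim24 without KO 6 months replicate 1 or WT 6 months replicate 2 or 3 (-1.67 to -1.28), and Tox without KO 6 months replicate 2 (-1.10). For KO 24 months tumor against WT 24 months 0 of the 10 passed in limma and 0 in SAM, with 3 higher and 1 lower at p under 0.05 before adjustment.

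Among 20 measured relatives of the 10 genes, differences of both signs passed in limma. In KO 6 months against WT 6 months 3 were higher and 4 lower, beside 12.1% of all probe sets. Elovl7 and Elovl6, elongases like Elovl3, were lower in KO 6 months than in WT 6 months (-3.32 ± 0.30, limma adjusted p = 3.7e-05, and -1.72 ± 0.26, adjusted p = 0.00155). Glyat, a glycine N-acyltransferase like Keg1, was higher (0.77 ± 0.10, adjusted p = 0.000429). Sult1d1, a sulfotransferase like Sult3a1, was higher in WT 24 months than in WT 6 months (1.11 ± 0.17, adjusted p = 0.00209). Hsd3b3, the only relative called in KO 24 months tumor against WT 24 months (1.48, limma adjusted p = 0.0269), is named after its value was seen. Its call was lost without any 1 of the KO 24 months tumor arrays (Hsd3b3 1.41 to 1.52) and when averaged over its probe sets (1.67, limma adjusted p = 0.0628).

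**Figure D4:**
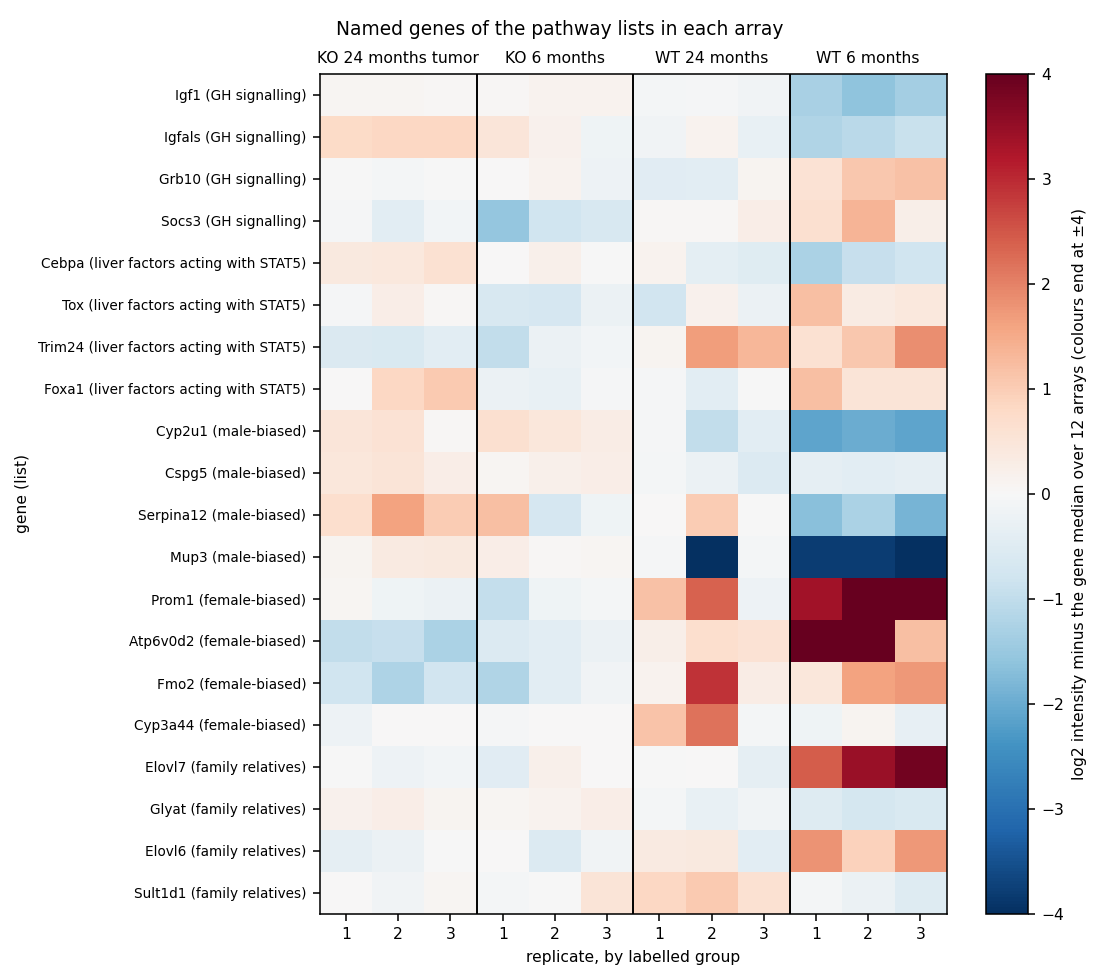
Log2 intensity of 20 listed genes in the 12 arrays, each minus its median over the arrays, with arrays grouped by label from left to right and colors ending at 4 above and below. The 3 arrays labelled WT 6 months differ from the rest in Igf1, Grb10, Cyp2u1, Prom1 and Elovl7, and within WT 24 months replicate 2 lies apart from the other 2 arrays in Mup3 and Fmo2.

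Over the 5 lists together, 70 genes were measured. The calls were 1 higher and 1 lower for KO 24 months tumor against WT 24 months, 10 and 13 for KO 6 months against WT 6 months, 0 for KO 24 months tumor against KO 6 months (10 higher and 4 lower at p under 0.05 before adjustment, and 1 each way in SAM), and 8 and 9 for WT 24 months against WT 6 months. Of all probe sets 0.238%, 12.1%, 0.02% and 8.76% were called in these comparisons, in the same order. The change with age differed between the KO and WT labels for 9 of the 70 (limma, interaction of genotype and age), beside 3.15% of all probe sets. Within KO the older arrays are also the ones labelled tumor, so age and tumor cannot be told apart in this contrast. The count for KO 24 months tumor against WT 24 months changed with single arrays: limma called 11 list genes without WT 24 months replicate 1, 3 without replicate 2, 7 without replicate 3, 0 without any 1 of the KO 24 months tumor arrays, and 1 without KO 6 months replicate 2 or 3 or WT 6 months replicate 1 or 2.

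Markers of other cells moved with some of these comparisons. Relative to the arrays labelled WT 6 months, endothelial markers were higher in limma in KO 6 months (5 of 7) and in WT 24 months (6 of 7), as were stellate cell markers (4 of 7 in each). Of all probe sets 12.1% and 8.76% were called in these 2 comparisons. In SAM, 6 endothelial and 4 stellate cell markers were higher in KO 6 months, but only 0 and 1 in WT 24 months. The summed log2 levels of endothelial and stellate cell markers were 9.93 to 10.64 and 9.84 to 11.13 in WT 6 months, against 11.33 to 12.34 and 12.25 to 12.98 in the other 9 arrays. Acute phase genes were lower in KO 24 months tumor than in WT 24 months (2 of 10, beside 0.238% of all probe sets) and in KO 6 months than in WT 6 months (4 of 10, beside 12.1%), with sums of 15.76 to 15.99 in all KO arrays against 16.00 to 17.34 in all WT arrays. Of 6 markers of Kupffer cells, the macrophages of liver, 0 passed for KO 24 months tumor against WT 24 months in limma and 0 in SAM, with 5 lower at p under 0.05 before adjustment, 5 lower without overlap (beside 6.77% of all probe sets) and a median of -1.90, or -2.2 without WT 24 months replicate 2. Their summed log2 levels were 10.90 to 11.29 in KO 24 months tumor against 11.75 to 15.06 in WT 24 months. Summed hepatocyte markers, which are defining genes of the labelled tissue, were 17.15 to 17.33 in all 12 arrays. They were 17.15 to 17.19 in KO 24 months tumor against 17.24 to 17.33 in WT 24 months. Of the 6 measured, 0 were called there, with 3 lower without overlap (beside 6.77% of all probe sets). In KO 6 months against WT 6 months 1 was called lower, beside 12.1%. Alb is the brightest of them, and such a sum mostly follows its brightest genes. The part of these markers in the levels of Ghr, Hsd3b5, Sult3a1 and the other genes was not tested.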

How the data were processed

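Liver RNA of 12 male mice was hybridised to 12 arrays, 3 in each labelled group. According to their methods and the labels, the authors made the deposited log2 intensities by RMA (R, simpleaffy; versions not given in the sources used here), which corrects background, equalises array quantiles and summarises each probe set. RMA compresses differences, and the table holds no detection calls, so low values have no order. The 64 control probe sets were left out, and 45037 were tested. A probe set was named from the platform annotation, updated through RefSeq: 34945 named 1 gene (18193 genes), 932 several and 9160 none. A gene was represented by its brightest probe set, and one below the median of all values (5.43) in every group mean was called dim.

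Groups were compared with limma 3.58.1 in R 4.3.3 over all 12 arrays, with Benjamini-Hochberg adjustment over all probe sets and a call at 0.05. The same 3 KO or WT arrays enter 2 comparisons each, so the comparisons share arrays. Each array is 1 animal, and its number limits precision. On simulated data limma was tested for recovery of changed probe sets. Genes named were the 10 members, the up to 4 list genes of smallest adjusted p per list, Igf1, Igfals, Iqgap2, Afp and, for members whose group means ranged over 2 log2 units, the 3 genes most like them. Members and lists were chosen with earlier results of these data known, and the Y-linked genes and the counts without WT 24 months replicates 2 and 3 after seeing the data. Alternatives were SAM written from its definition, fits of only the groups compared, replicate block, 1 probe set or the mean per gene, removal of dim probe sets, a fold of 3, a trended prior, centring on the median or on 3 of 5 housekeeping genes, exchanged labels, and leaving out each array. Same-numbered arrays did not deviate together (correlations -0.24 to 0.19). Figures were drawn with matplotlib 3.10.9.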

Additional observations from a re-analysis of the deposited data

Results flagged for a closer look

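For 8 of the named genes the change with age differed between the labels, by limma's test of the interaction, which was called for 9 of 70 list genes. Change with age here means the older against the younger label, and within KO the older label is also that of tumor. The contrast cannot tell age from tumor. Leaving out 1 array, the calls of Igf1, Cyp2u1 and Elovl7 held each time and that of Sult1d1 was lost only without KO 24 months tumor replicate 2, while those of Foxa1, Prom1, Grb10 and Tox were lost in 5, 9, 10 and 10 of 12 cases. The count was 3 without KO 24 months tumor replicate 2, 4 or 5 without any 1 of the other KO arrays, and 7 to 10 without any 1 WT array. KO 24 months tumor minus KO 6 months, less WT 24 months minus WT 6 months, was -1.39 for Igf1 (limma adjusted p = 0.000237), 1.18 for Grb10 (0.0311), 1.54 for Tox (0.0438) and 1.74 for Foxa1 (0.0237). It was -1.68 for Cyp2u1 (limma adjusted p = 0.0105), 3.17 for Prom1 (0.0389), 3.33 for Elovl7 (0.0013) and -1.26 for Sult1d1 (0.0175). In Igf1, Cyp2u1, Prom1 and Elovl7 the 3 arrays labelled WT 6 months stood apart from the other 9, and in Sult1d1 the 3 of WT 24 months. The interaction keeps its size and sign when WT 6 months and KO 24 months tumor are exchanged.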

How the results depend on the processing

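Centring on the median moved no count by over 1.5 times, and the trended prior moved 1, leaving 1 of the 10 growth hormone genes called instead of 2 for KO 24 months tumor against WT 24 months. With 1 probe set a gene, 18193 genes were tested in place of 45037 probe sets, so these counts have a smaller base than those of the main fit. Calls were then 3098 for KO 6 months against WT 6 months and 2417 for WT 24 months against WT 6 months, with 4 list genes for KO 24 months tumor against WT 24 months. Averaged over each gene's probe sets, again on 18193 genes, they were 2902, 2350 and, for KO 24 months tumor against KO 6 months, 5. In SAM the comparisons KO 24 months tumor against WT 24 months (A), KO 6 months against WT 6 months (B), KO 24 months tumor against KO 6 months (C) and WT 24 months against WT 6 months (D) gave 260, 9639, 163 and 843 probe sets (limma: 107, 5453, 9 and 3944), with 4, 2 and 2 list genes in A, C and D. A fold of 3 besides the adjusted p left 27, 806 and 741 probe sets and 0, 9 and 6 list genes in A, B and D, and 4 interactions. Centring on housekeeping genes, which shifted WT 24 months against WT 6 months by 0.12, gave 441, 3386 and 45 probe sets in A, B and C, with 12 and 1 list genes in A and C. Fitting only the groups compared gave 22, 124 and 1497 probe sets in A, C and D, with 2 and 8 list genes in C and D. Removal of dim probe sets gave 4 list genes in A. The replicate block gave 68 and 3 probe sets in A and C, and 1 list gene and 0 of the 10 growth hormone genes in A, and the numbers did not pair the arrays.

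Leaving out 1 array gave 9 to 1177 probe sets in A (lowest without KO 24 months tumor replicate 2, highest without WT 24 months replicate 1), 3361 to 6435 in B, 3 to 18 in C and 3029 to 3995 in D. List genes called were 0 to 11, 16 to 29, 0 to 0 and 12 to 17, and interactions 3 to 10. Exchanged labels were followed for called differences only: all those of the 10 genes, and for each named list gene the one of smallest adjusted p. Among these the sign turned for Ghr (-0.09), Hsd3b5 (-0.57), Keg1 (-0.29), Igfals (-0.65), Cebpa (-0.41), Trim24 (0.10), Cspg5 (-0.23), Mup3 (-0.17), Atp6v0d2 (0.65), Elovl7 (0.03) and Glyat (-0.02) in KO 6 months against WT 6 months, for Obp2a (-1.71) and Keg1 (-1.13) in KO 24 months tumor against WT 24 months, and for Keg1 (-1.64) and Serpina12 (-0.76) in WT 24 months against WT 6 months, because other arrays then carry these names. Some differences that were not called turned sign too, such as those of Hsd3b5 and Ghr in KO 24 months tumor against WT 24 months, and are not listed. Over the named list genes and alternatives, apart from these sign changes, the call was lost in 42 cases, gained in 5 and kept on its side of the threshold in 404. Causes were not tested.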
